A study of Homo sapiens with 25 samples.

Results

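The genes described here encode the MHC class II antigen presentation machinery: HLA-DRA, HLA-DRB1, HLA-DQA1, HLA-DQB1, HLA-DPA1 and HLA-DPB1, HLA-DMA and HLA-DMB, CD74 and CIITA, 10 of the 19970 protein-coding genes on chromosomes 1 to 22 and X. They were selected on measured values: earlier results on these files had placed CD74 among promoters with an H3K4me3 peak in the control list only. The peak and domain calls of the members are therefore given as descriptions, with no test. The study used MDA-MB-231, a human triple-negative breast cancer cell line, and chromatin immunoprecipitation followed by sequencing. Control cells and cells in which the PML gene was silenced by a lentiviral short hairpin RNA were profiled for lamin B1 (LMNB1) and histone marks, with 2 libraries per target and condition; 3 libraries were made for the PML protein itself, with titles that name no condition. The control treatment is not described in the labels, and neither the hairpin nor the number of clones or pools is given.

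MHC class II molecules are heterodimers of an alpha and a beta chain that present peptides from endosomes to CD4+ T cells. CD74, the invariant chain, fills their groove during transport, HLA-DM exchanges its remnant for peptide, and CIITA is the coactivator that binds the assembled factors on class II promoters. Constitutive expression is a property of B cells, dendritic cells and macrophages, while interferon gamma induces the genes in many other cells, mostly through CIITA. H3K4me3 marks active or poised promoters, H3K27ac marks active promoters and enhancers, and H3K9me3 marks constitutive heterochromatin.

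The values are 9 lists deposited by the authors, 1 for each target and condition: 4 of H3K4me3 and H3K27ac peaks and 5 of broad domains of PML, LMNB1 and H3K9me3. Peaks were called on replicates 1 and 2 together, and each domain list is 1 call whose replicates the labels do not describe, so there is no value per replicate, no error and no test between conditions for any result below. A peak's fold enrichment is the authors' value over their background, and it is not on a common scale between lists: over 12328 promoters with an H3K4me3 peak in both lists the median was 18.4 in the control and 36.2 in the knockdown list, and over 10009 promoters with H3K27ac in both lists the median ratio of knockdown to control fold was 1.38. Read depth is unknown, and a promoter without a peak may still carry the mark at a level that did not pass the authors' peak calling. A promoter is here the start of the canonical transcript with 1000 bp on either side. The cell line's basal and mesenchymal markers (VIM, CD44, AXL, ZEB1 and CAV1) carried both marks in both conditions, 5 of 5. Of 8 markers of antigen-presenting and B cells, CD14 and CD68 alone had a promoter peak of either mark in any list. CD14 had H3K4me3 in both lists (folds 10.1 and 15.7). CD68 had H3K27ac in both lists (4.03 and 15.8) and H3K4me3 (4.60) in the knockdown list only. MS4A1, CD79A, PTPRC, ITGAX and CSF1R were among those with none. Of all promoters 61.7% had H3K4me3 in both lists and 50.1% had H3K27ac in both. Of 6 luminal markers 4 had H3K4me3 in the control and 5 in the knockdown list, with PGR (fold 5.50) in the latter only, and H3K27ac was at 0 and 2, EPCAM (5.34) and ERBB2 (4.10). The lists hold no measure of RNA, so they do not show whether a gene was transcribed.

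Of the 10 genes, 3 had an H3K4me3 promoter peak in the control list (HLA-DMA, HLA-DMB and CD74) and 3 in the knockdown list (HLA-DQB1, HLA-DMA and HLA-DMB), where 61.8% and 63.7% of all protein-coding promoters did. HLA-DMA and HLA-DMB were marked in both lists, as were 61.7% of all promoters, CD74 in the control list only (0.0951% of all) and HLA-DQB1 in the knockdown list only (1.79%). H3K27ac was listed at 0 of the 10 promoters in the control list and at HLA-DMA in the knockdown list, against 50.8% and 53.7% of all promoters, so that 0 members had it in the control list only (0.666% of all), 0 in both (50.1%) and 1 in the knockdown list only (3.24%). The class II promoters hold a conserved array that includes the X box, bound by the RFX complex, and the Y box, an inverted CCAAT motif bound by NF-Y. The reference sequence in front of the 4 genes with a promoter peak is shown because these are the promoters at which the lists differ or are occupied. Each stretch begins 200 bases before the RefSeq start (GRCh38.p14), lies on the minus strand and is written 5′ to 3′, with matches to the X and Y motifs in capitals. The stretches are chr6:32666685-32666857, chr6:32953109-32953297, chr6:32941029-32941228 and chr5:150412911-150413110; they stop short of annotated untranslated sequence, 28 bases before the start at HLA-DQB1, 12 bases at HLA-DMA and 1 base at HLA-DMB and CD74.
HLA-DQB1: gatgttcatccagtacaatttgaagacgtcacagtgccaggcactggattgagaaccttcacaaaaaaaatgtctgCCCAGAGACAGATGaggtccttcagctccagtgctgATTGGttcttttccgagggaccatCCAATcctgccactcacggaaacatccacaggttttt
HLA-DMA: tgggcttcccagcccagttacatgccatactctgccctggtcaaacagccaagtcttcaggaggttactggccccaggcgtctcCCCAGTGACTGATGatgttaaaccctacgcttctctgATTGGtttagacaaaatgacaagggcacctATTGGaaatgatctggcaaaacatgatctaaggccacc
HLA-DMB: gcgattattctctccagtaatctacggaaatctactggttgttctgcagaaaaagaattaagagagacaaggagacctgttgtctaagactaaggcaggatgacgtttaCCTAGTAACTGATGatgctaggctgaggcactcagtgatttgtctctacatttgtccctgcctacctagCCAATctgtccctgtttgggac
CD74: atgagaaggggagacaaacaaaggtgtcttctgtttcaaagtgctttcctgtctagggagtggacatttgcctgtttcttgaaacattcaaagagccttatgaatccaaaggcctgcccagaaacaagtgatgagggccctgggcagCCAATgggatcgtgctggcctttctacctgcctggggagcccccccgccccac

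RefSeq promoter windows were at hand for 8 of the 10 genes, in 9 windows, and those of HLA-DRA and CIITA were not used here. In the 250 bases before the start, on both strands, the X box, a pattern of 14 bases whose matches are the longer runs of capitals above, was found at 3 of these 8 genes, HLA-DQB1, HLA-DMA and HLA-DMB, and in 0.837% of all 35116 promoter windows. The Y motif ATTGG was found at 7 of the 8 genes, all but HLA-DPA1, and in 32% of all windows, so on its own it separates little. At HLA-DQB1 the X motif lies 124 to 111 bases before the start with a Y motif 22 bases after it, and at HLA-DMA it lies 116 to 103 bases before the start with a Y motif 23 bases after it. An X motif followed within 40 bases by a Y motif on the same strand occurred in 7 windows of 35116 (0.0199%). These were the windows of ARFGAP2, BTN2A1, HLA-DMA, HLA-DQB1, MR1, MRS2 and NET1. The pairing and its limit of 40 bases were not among the motif searches planned in advance, so this share is a description only. At HLA-DMB the X motif lies 91 to 78 bases before the start. The only exact match to the Y motif there is on the other strand, 22 to 18 bases before the start. Only exact matches to the X and Y patterns were counted, and near matches to either were not searched. A gene without a match, CD74 for the X motif included, may therefore still hold such a box. A shorter core of the X box, which was chosen after the windows had been searched and overlaps the longer pattern, was also found at HLA-DRB1, and in 3.19% of all windows. The interferon motifs, GAS (TTCNNNGAA) and ISRE, had matches at HLA-DQA1 and at 0 of the 8 genes, respectively, against 6.57% and 3.02% of all windows. These matches are letters in a reference sequence; the class II region is highly polymorphic, and the alleles of this cell line were not analysed here.

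Peaks of active marks were nearly missing from the genes for the presenting chains. HLA-DRA (ENSG00000204287.14, chromosome 6, 32439878 to 32445046), which encodes the shared alpha chain of HLA-DR, HLA-DRB1 (ENSG00000196126.12, 32577902 to 32589848), HLA-DQA1 (ENSG00000196735.13, 32628179 to 32647062), HLA-DPA1 (ENSG00000231389.8, 33064569 to 33080775) and HLA-DPB1 (ENSG00000223865.11, 33075990 to 33089696) had 0 peaks of either mark in the promoter or the gene body, in both conditions. Of all protein-coding promoters 61.8% had H3K4me3 in the control and 63.7% in the knockdown list, and 50.8% and 53.7% had H3K27ac. For gene bodies no share over all genes is given here, so how common a gene body without a peak is remains unknown. The start of HLA-DRA lay 243.2 kb from the nearest H3K4me3 peak of the control list and 68.0 kb from the nearest H3K27ac peak. The start of HLA-DRB1 lay 207.1 and 218.0 kb from them. HLA-DPA1 and HLA-DPB1, which face each other and overlap, lay 61.4 and 56.7 kb from the nearest control H3K4me3 peak. In the control lists, 425 kb of chromosome 6 from 32371869 to 32796931 held no peak of either mark, and HLA-DRA, HLA-DRB1, HLA-DQA1 and HLA-DQB1 start in it. In the knockdown lists such a stretch was shorter, 295 kb from 32371801 to 32666467, and HLA-DRA, HLA-DRB1 and HLA-DQA1 start in it. The nearest knockdown H3K4me3 peak lay 183.9 kb from HLA-DRA and 76.6 kb from HLA-DRB1.

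HLA-DQB1 (ENSG00000179344.17, chromosome 6, 32659467 to 32668383), the beta chain gene of HLA-DQ, was the exception among the 6 chain genes, and in the knockdown list only. Its H3K4me3 peak (32666468 to 32666759, 292 bp) had a fold enrichment of 4.72 and a -log10 q of 6.44. The summit lay 74 bp after the start, in exon 1, and the peak reached 102 bp before the start, so that it covers the Y motif of the printed sequence and stops short of the X motif. The nearest H3K4me3 peak of the control list was 130.3 kb away. The peak was weak for its list: 21.0% of the 27760 knockdown peaks had a lower fold, and it stood 194th by fold among 357 promoters marked in the knockdown list only, whose median was 4.98. With the longer list cut to the 22211 peaks of the control list by -log10 q, HLA-DQB1 was no longer marked. The nearest H3K27ac peak was 170.9 kb away in both lists.

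**Figure D1:**
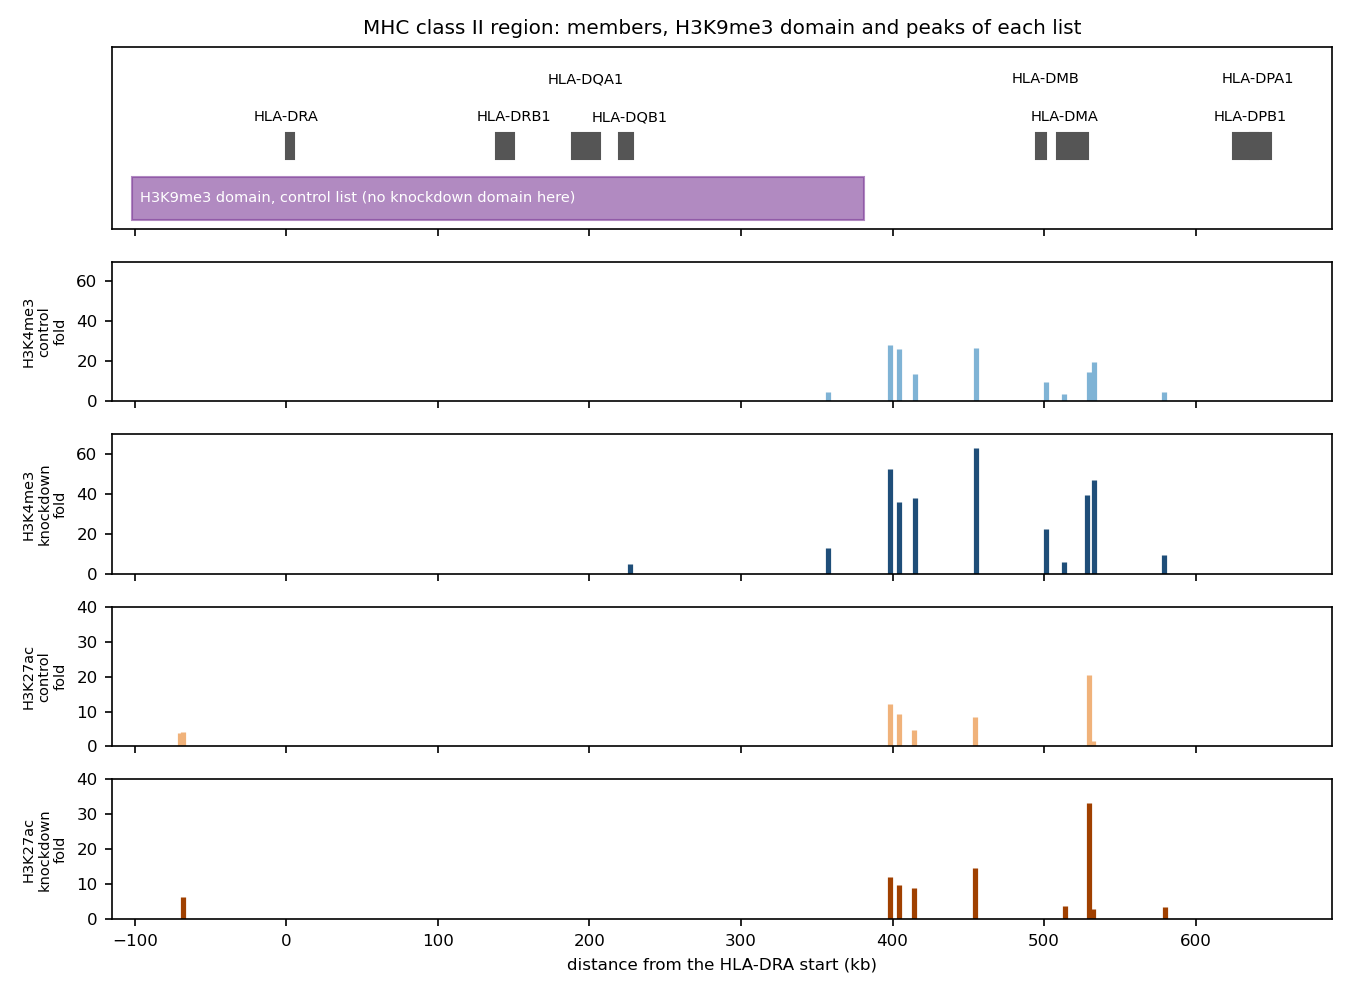
Map of the MHC class II region in kb from the HLA-DRA start. The top track shows the 8 members on chromosome 6 (grey) and the control H3K9me3 domain (purple), and the bars below show each peak's fold enrichment, which is the authors' and has no common scale between lists. Among the DR and DQ genes the HLA-DQB1 peak (fold 4.72, knockdown H3K4me3) stands alone, and to the right of the domain all peaks appear in both conditions except the knockdown H3K27ac peaks at HLA-DMA (3.68) and between HLA-DOA and HLA-DPA1 (3.40).

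The HLA-DM genes had an H3K4me3 promoter peak in both conditions. HLA-DMB (ENSG00000242574.9, chromosome 6, 32934629 to 32941028), the beta chain of the peptide exchange factor, had an H3K4me3 peak of fold 9.50 in the control list (32940614 to 32941131) and 22.4 in the knockdown list (32940536 to 32941190). The summits lay 82 and 100 bp after the start, in exon 1. The ratio of these folds was 2.36, against a median of 1.89 over all promoters marked in both lists, of which the central 90% ran from 1.02 to 3.85. Among all peaks HLA-DMB ranked in the middle of its lists, with 47.0% of control and 65.3% of knockdown peaks below it. Both folds were below the medians of promoters marked in both lists, 18.4 and 36.2. It had no H3K27ac peak in either list, and the nearest were 26.8 kb away in the control and 11.9 kb in the knockdown list.

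HLA-DMA (ENSG00000204257.15, chromosome 6, 32948613 to 32969094), the alpha chain, had weaker H3K4me3 peaks, of fold 3.71 in the control list (32952766 to 32953050) and 5.88 in the knockdown list (32952821 to 32953409). The ratio was 1.59, below the median of all promoters marked in both lists. The control peak, 285 bp wide, began 47 bp after the start, whereas the knockdown peak, 589 bp wide, reached 312 bp before the start and so covers both motifs printed above. In the knockdown list HLA-DMA also had an H3K27ac peak (32952897 to 32953430) with a fold of 3.68, a -log10 q of 2.74 and its summit at -265 bp from the start. Promoters with H3K27ac in the knockdown list only numbered 647, and HLA-DMA stood 387th of them by fold. With a -log10 q of at least 5 required, no member had an H3K27ac promoter peak. The readthrough gene ENSG00000248993 also starts inside the knockdown peaks at HLA-DMA and within 1000 bp of the control peak. The start that these peaks belong to cannot be told apart. Broad peaks at the far end of the longest HLA-DMA transcripts (32967301 to 32971633 for control H3K4me3) contain the start of BRD2, which encodes a bromodomain protein, and also the start of a longer HLA-DMA transcript at 32969094.

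CD74 (ENSG00000019582.17, chromosome 5, 150401637 to 150412969) had a single peak across the 4 peak lists. It was the control H3K4me3 peak on its promoter (150412533 to 150413187), 655 bp wide, with a fold of 6.02 and a -log10 q of 16.5. The summit lay 140 bp after the start, in exon 1, and the peak reached 277 bp before the start, over the whole printed stretch. No knockdown H3K4me3 peak lay closer than 34.4 kb, where the promoter of RPS14, a ribosomal protein gene, had folds of 31.8 and 66.9. CD74 had the highest fold of the 19 promoters marked in the control list only, whose folds ran from 2.81 to 6.02. The genes were selected because CD74 is in this set, so its rank there is a description only. Within the whole control list it was below the middle, with 31.3% of 22211 peaks lower. No H3K27ac peak was listed at CD74 in either condition, and the nearest was 35.0 kb away in the control list.

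**Figure D2:**
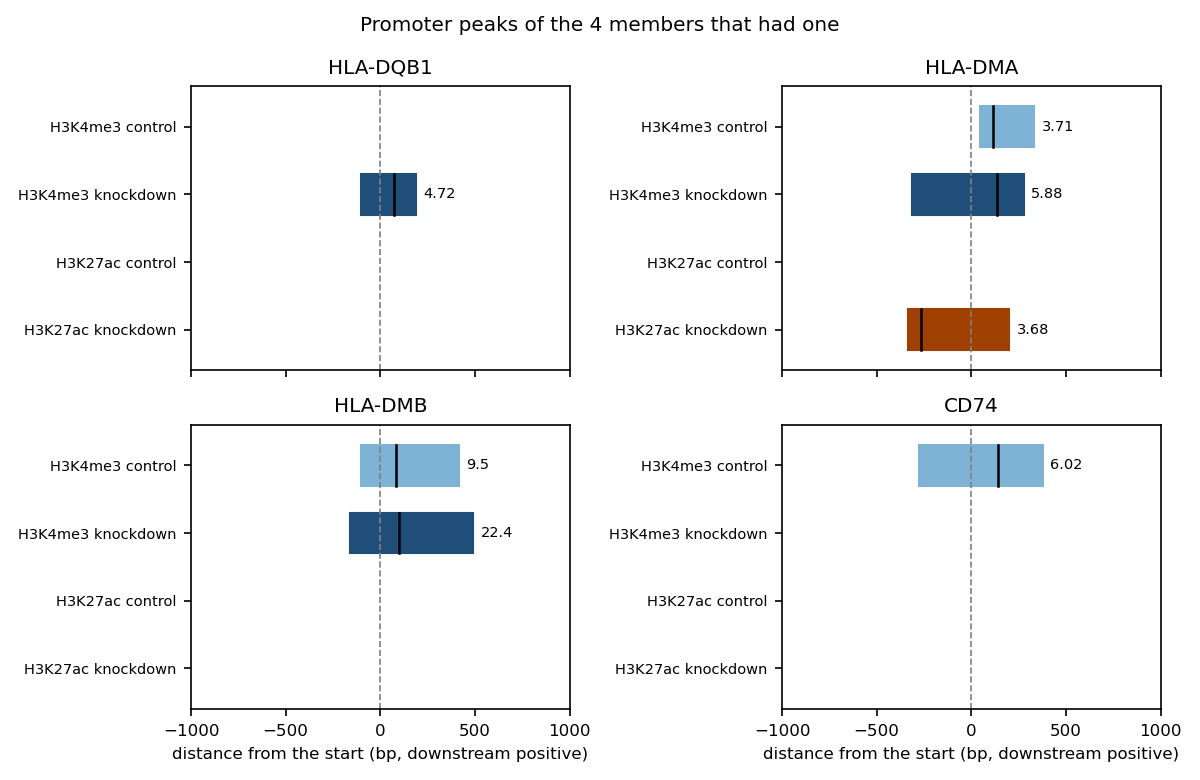
Peaks within 1000 bp of the start of the 4 members that had one, drawn to scale in bp from the start; the black line is the summit and the number is the fold enrichment. HLA-DMB and HLA-DMA have H3K4me3 in both lists, HLA-DQB1 in the knockdown list only (4.72) and CD74 in the control list only (6.02).

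CIITA (ENSG00000179583.21, chromosome 16, 10866222 to 10943021), the class II coactivator, is transcribed from alternative promoters used in different cell types. Its canonical start, at 10877202, had no peak of either mark within 1000 bp in either condition. An H3K4me3 peak lay further in, with its summit 2005 bp after that start in the control list (10878570 to 10879982, fold 10.7) and 2011 bp after it in the knockdown list (10878544 to 10879897, fold 11.8). This peak contains another annotated coding start of CIITA at 10878969, 1.77 kb from the canonical one. It stood at the middle of both lists, with 51.5% and 50.1% of peaks lower, and had no H3K27ac peak over it. When any annotated coding start was used, or 2500 bp on either side, CIITA counted as marked by H3K4me3 in both lists and the number of marked genes became 4 in each.

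A strong H3K27ac peak lay on the other side of the canonical start of CIITA. Its summit was 5.68 kb before that start in the control list (10870460 to 10872223, fold 20.3) and 5.70 kb before it in the knockdown list (10870559 to 10872152, fold 23.6), inside the gene model that begins at 10866222. In their lists 94.4% and 92.1% of H3K27ac peaks had a lower fold. In the knockdown list an H3K4me3 peak of fold 4.29, 373 bp wide with a -log10 q of 4.85, lay under it, with no control counterpart. The antisense long non-coding RNA gene ENSG00000262151 spans this site and the H3K4me3 peak above. The peaks at the 3′ end of CIITA (H3K4me3 fold 41.1 and 53.6) contain or flank the start of DEXI at 10942468 and are listed with that gene. With those at the BRD2 and DEXI starts included, the gene bodies of the 10 genes held 6 control H3K4me3 peaks, of which 5 overlapped a knockdown peak, against 98.8% of the whole control list. The exception was the CD74 peak. All 4 control H3K27ac peaks over the gene bodies overlapped a knockdown peak, against 91.6% of that list. In the other direction, 5 of 7 knockdown H3K4me3 peaks over the gene bodies overlapped a control peak, against 73.2% of the whole list, and 4 of 5 knockdown H3K27ac peaks did, against 84.5%.

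**Figure D3:**
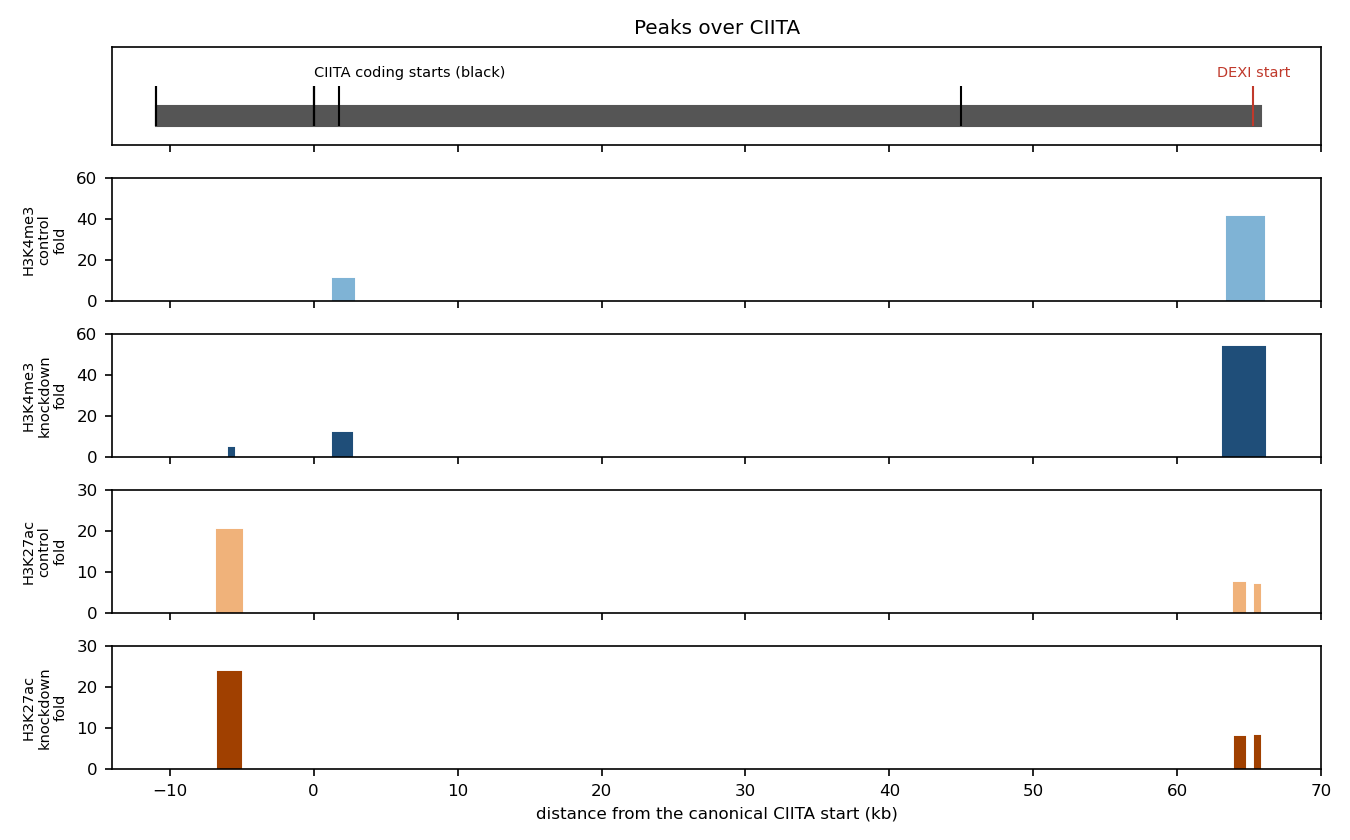
Peaks over CIITA, in kb from its canonical start, with bar height as fold enrichment and bar width as peak width. The H3K27ac peak 5.7 kb before the start (20.3 and 23.6) and the H3K4me3 peak 2 kb after it (10.7 and 11.8) are in both conditions, and the peaks at the right end sit at the DEXI start.

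**Figure D4:**
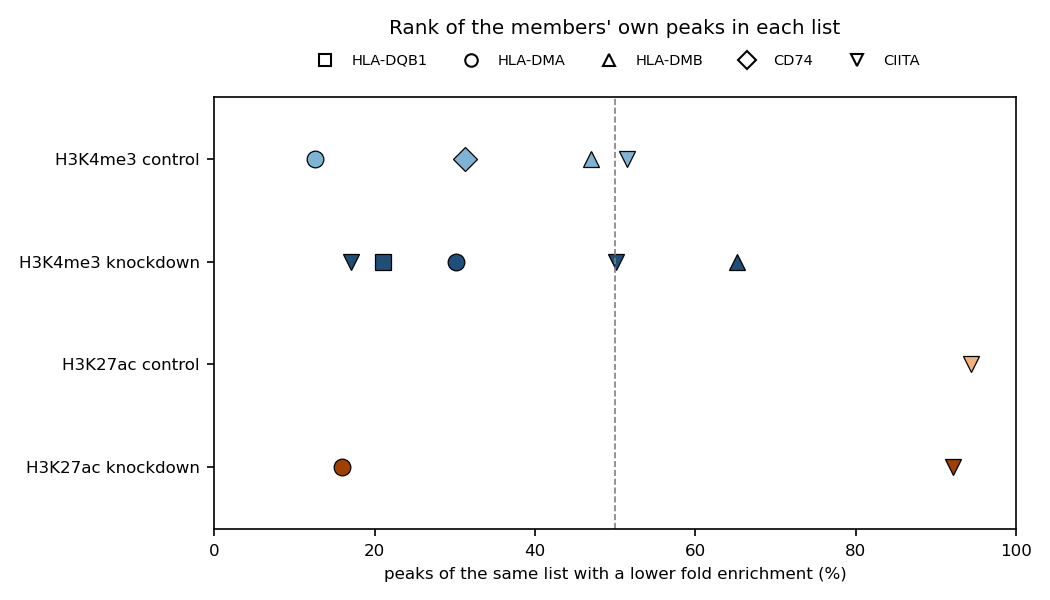
Rank of each peak at the members in its own list, as the percentage of peaks with a lower fold enrichment; the dashed line is the middle of the list. Peaks at the starts of BRD2 and DEXI are left out. The promoter peaks of HLA-DQB1, HLA-DMA and CD74 lie in the lower part of their lists, and the CIITA H3K27ac peak lies above 90% of its list.

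None of the 10 genes started in a PML domain or in an LMNB1 domain of either condition, where 13.1%, 12.4% and 11% of all protein-coding genes did. On chromosome 6 the nearest PML domain lay 2.85 to 3.49 Mb from the 8 starts. For CIITA it lay 698 kb away and for CD74 1688 kb. LMNB1 control domains lay 711 kb from CIITA and 1482 kb from CD74. Starts in an LMNB1 domain of the control list but of no knockdown domain made up 2.05% of all genes and 16.6% of those in a control domain, with 0 members.

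H3K9me3 separated the class II genes by position. HLA-DRA, HLA-DRB1, HLA-DQA1 and HLA-DQB1, 4 of the 10, started in a control domain, against 10% of all genes, and 0 of the 10 started in a knockdown domain, against 8.6%. All 4 lay in a single domain on chromosome 6 from 32338001 to 32821000, so they are 1 observation and not 4. HLA-DRA lay 101.9 kb from its left border and HLA-DQB1 154.3 kb from its right border. HLA-DMB, HLA-DMA, HLA-DPB1 and HLA-DPA1 started 120, 132, 255 and 260 kb beyond it, CIITA lay 366 kb from its nearest control domain and CD74 1571 kb. In the knockdown list the nearest domain to HLA-DQB1 began 1003 kb away. The domain holds 10 protein-coding starts, the others being TSBP1, BTNL2, HLA-DRB5, HLA-DQA2, HLA-DQB2 and HLA-DOB. Of these 10 starts, H3K4me3 was listed at 0 in the control and at HLA-DQB1 in the knockdown list, and H3K27ac at TSBP1 in both. Over all promoters the shares were 61.8% and 63.7% for H3K4me3 and 50.8% and 53.7% for H3K27ac. The share over genes in other H3K9me3 domains is not given here, so a trait of this domain in particular cannot be read from these counts.

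The domain was small and among the weakest of its list. It was 483 kb long, against a median of 1058 kb, and its deposited score was 15.7, against a median of 27.6 and a lowest value of 14.3, with 33 of 430 domains below it. Of all 430 control H3K9me3 domains 200 (46.5%) overlapped no knockdown domain, and of the 43 with the lowest scores 35 (81.4%) did not. Of the 1997 genes that started in a control domain 48% were outside the knockdown domains (4.8% of all genes), as were all 4 members, and of the 83 genes in control domains no longer than that of the class II genes 83.1% were. These 83 genes include the 10 of this domain and share domains with each other; counted by domain, 16 of the 28 domains of that length or shorter (57.1%) overlapped no knockdown domain. The knockdown list also has a coarser grid, 35 against 23 kb, and a median score of 15.0. The part of score, length and grid in the missing call at the class II genes was not tested. With domains of at least 500 kb only, 0 of the 10 genes started in a control domain.

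**Figure D5:**
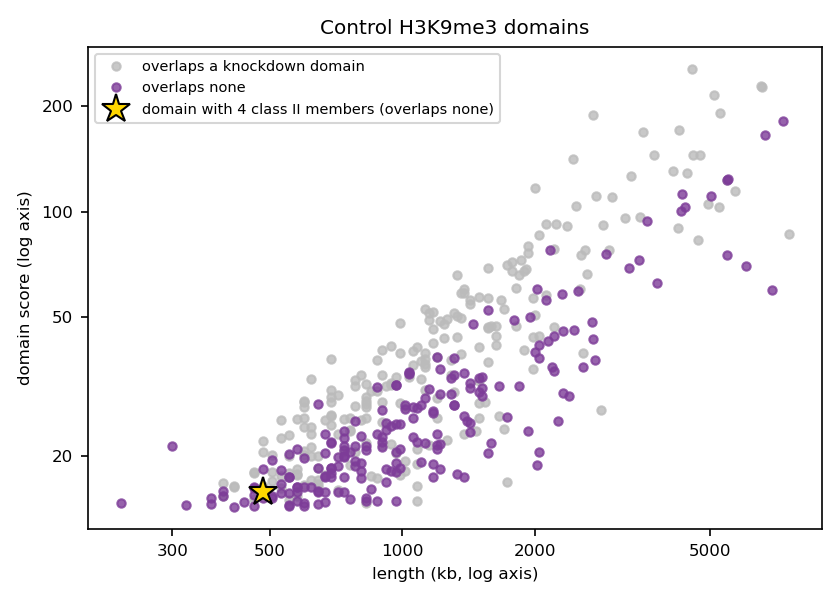
The 430 control H3K9me3 domains by length (kb) and deposited score, both on log axes; purple points overlap no knockdown domain. The domain that holds HLA-DRA, HLA-DRB1, HLA-DQA1 and HLA-DQB1 (star, 483 kb, score 15.7) sits in the lower left corner, and 35 of the 43 domains with the lowest scores overlap none.

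HLA-DRB5, HLA-DQA2, HLA-DQB2, HLA-DOA and HLA-DOB, the last pair encoding HLA-DO, a modulator of HLA-DM, had 0 promoter peaks of either mark in both conditions. Of the 5, 4 (all but HLA-DOA) started in a control H3K9me3 domain, against 10% of all genes. It is the same single domain that holds HLA-DRA, HLA-DRB1, HLA-DQA1 and HLA-DQB1, so these genes add no further observation. The factors that bind class II promoters were marked throughout. RFX5, RFXANK and RFXAP of the X box complex, NFYA, NFYB and NFYC of NF-Y, and CREB1 had H3K4me3 and H3K27ac promoter peaks in both lists, 7 of 7. Of all promoters 61.7% had H3K4me3 in both lists and 50.1% had H3K27ac in both. The highest control H3K4me3 folds were those of NFYA (26.99), NFYB (23.4), CREB1 (21.0) and RFX5 (19.6). RFXAP, singled out after its values were seen, had the lowest folds of the 7, 9.36 and 17.6 for H3K4me3 and 1.86 and 2.58 for H3K27ac.

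In the interferon gamma pathway all 8 genes listed, among them the receptor, kinase and IRF genes, had H3K4me3 promoter peaks in both lists. H3K27ac was in both lists at 7 of them. The shares over all promoters were 61.7% for H3K4me3 and 50.1% for H3K27ac. The receptor subunit gene IFNGR2 had H3K27ac in the knockdown list only, with a fold of 2.45, and the lowest H3K4me3 folds of the group, 3.71 and 7.95. Of 8 genes of endosomal processing, CTSB, CTSL, CTSD, LGMN and IFI30 had H3K4me3 in both lists. CTSS, the cathepsin that cleaves the invariant chain, had H3K4me3 in the knockdown list only, with a fold of 4.50, and no H3K27ac. IFI30, the lysosomal thiol reductase, had H3K27ac in the knockdown list only, with a fold of 3.50. MARCHF1 and MARCHF8, ubiquitin ligases that remove class II molecules from the surface, had no promoter peak. CTSL was the only gene of these 3 lists in a domain, with its start in H3K9me3 domains of both conditions.

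Of 14 genes between or beside the 10 members, 10 had both marks in both conditions, and NOTCH4, BTNL2, COL11A2 and NDST1 had neither mark. Over all promoters, H3K4me3 was in both lists at 61.7% and H3K27ac at 50.1%. TCOF1, RPS14 and NDST1 are neighbours of CD74 on chromosome 5, and DEXI and CLEC16A of CIITA on chromosome 16. The other neighbours lie by the class II genes on chromosome 6. The highest control H3K4me3 folds were those of DEXI (41.1), RPS14 (31.8), CLEC16A (29.7) and TAP2 (28.3). Of these, TAP2 alone is in the class II region. TAP1 and PSMB9, named after their values were seen, which supply peptides to class I molecules and share a promoter region between HLA-DOB and HLA-DMB, had H3K4me3 folds of 13.6 and 37.8. For comparison, class I genes, chosen after their values were known, had H3K4me3 peaks in both lists at HLA-B (7.19 and 21.5) and HLA-C (11.2 and 32.0), with B2M, their light chain, at 20.9 and 99.8. H3K4me3 was at 6 of these 7 genes in both lists, HLA-G being without it, and H3K27ac was at 4 in the control and 6 in the knockdown list, with HLA-B (3.34) and HLA-F (4.82) in the latter only. The contrast with the class II chain genes is a description of these lists, and no test of it was made.

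Across the 9 lists taken as yes or no, CD74 shared its pattern (control H3K4me3 and nothing else) with SMKR1, GPX7, ACP7, PHETA2 and GDF15, 6 of 19970 genes. This pattern includes the CD74 call on which the genes were selected. CIITA, HLA-DPA1 and HLA-DPB1 had no promoter peak and no domain at the start in any list, a pattern of 4611 genes (23.1%). HLA-DRA, HLA-DRB1 and HLA-DQA1 had the control H3K9me3 domain alone, a pattern of 102 genes (0.511%).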

How the data were processed

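Cells of the MDA-MB-231 line were fixed with disuccinimidyl glutarate and formaldehyde before immunoprecipitation, per the labels' protocols. Per the submitters' processing notes the build was hg38, and the tools named, without a role, were MACS2 2.2.7.1, deepTools, Picard 1.104 and BWA 0.7.12-r1039. The deposited peak lists give a fold enrichment, a ratio, and a -log10 q-value per peak, and the peak names show that replicates 1 and 2 entered 1 call. The deposited domain lists give a score per domain with no unit, and EDD is named in the file names only. Peak files marked ct and pml were read as control and PML knockdown, an assumption. The libraries of H3K27me3 and the inputs were left out. On alternate contigs of chromosome 6 the lists held 0 entries.

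Starts came from GENCODE release 44 and sequences from RefSeq. A peak counted from 1 bp of overlap. It was in 1 list only when no peak of the other list lay in the promoter or overlapped it. Promoter calls were checked with bedtools 2.31.1 and overlaps on simulated lists. Python 3.11.15, numpy 2.4.6, pandas 2.3.3 and matplotlib 3.10.9 were used. The members and lists were chosen with earlier results of these data known. All 10 members are named. From the other lists the rule names genes marked in 1 condition only or, if none, up to 4 with the highest control fold; further genes were named after their values were seen. Values of some listed genes are not reported here.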

Additional observations from a re-analysis of the deposited data

How the results depend on the processing

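Promoter widths of 500 and 2500 bp, any annotated coding start, -log10 q of at least 5, peak lists of equal length, a 50% overlap of both peaks, domains of at least 500 kb, joining of domains within 100 kb and overlap with the whole gene were tried. CD74 stayed the only member with H3K4me3 in the control list only under each promoter alternative. The genes were selected on this CD74 call, and none of these settings could remove it. Its peak spans the start with a -log10 q of 16.5, and no knockdown H3K4me3 peak lay closer than 34.4 kb. Equal numbers of H3K4me3 peaks shorten the knockdown list only. HLA-DQB1 was not marked with equal numbers of peaks, which left 0 members with H3K4me3 in the knockdown list only. For H3K27ac, -log10 q of at least 5 left 0 members in the knockdown list and 0 in the knockdown list only. Any annotated coding start gave 1 member (control) and 0 for the knockdown list only, since the peak at the BRD2 start then counted for HLA-DMA. Domains of at least 500 kb left 0 members in control H3K9me3 domains. Of 6 control H3K4me3 peaks over the gene bodies 5 were shared with the knockdown list, and 4 with a 50% overlap required. Over the whole control list 98.8% were shared. Without peaks that contain the start of another gene, an alternative added after the data were seen, 3 of 4 were. For H3K27ac it was 4 of 4 (91.6% of the whole control list), 4 of 4 and 3 of 3. These 3 include the peaks at the 3′ end of CIITA, which lie within 1000 bp of the DEXI start but do not contain it. No paired analysis was possible because each target and condition has 1 list with no value per replicate, and for the same reason no replicate could be left out. The unknown read depth limits every statement on a missing peak.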

Other observations

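Apart from the genes, the class II region from 32338001 to 33089696 on chromosome 6 held a few peaks with no coding start within 1000 bp. In the control H3K9me3 domain, between HLA-DQB2 and HLA-DOB, an H3K4me3 peak lay 357.6 kb after the HLA-DRA start, with a fold of 4.67 in the control list (32796932 to 32797675) and 13.0 in the knockdown list (32796910 to 32797730). A further H3K4me3 peak between HLA-DOA and HLA-DPA1 had folds of 4.51 (33018945 to 33019269) and 9.34 (33018710 to 33019391). It was joined in the knockdown list only by an H3K27ac peak of fold 3.40 with a -log10 q of 2.04. The strongest H3K4me3 peak of the knockdown list in the region, with a fold of 62.9 against 26.5 in the control list, lay between PSMB9 and HLA-DMB (32893784 to 32895979), at the annotated starts of HLA-Z, ENSG00000289047 and ENSG00000289559, none of them protein-coding. It carried H3K27ac with folds of 8.36 and 14.7. Of the 10 control and 11 knockdown H3K4me3 peaks in the region, 10 and 10 overlapped one of the other list, the HLA-DQB1 peak being the exception. Over the whole lists 98.8% and 73.2% did. For H3K27ac 7 of 8 control and 7 of 9 knockdown peaks in the region overlapped one of the other list, against 91.6% and 84.5% over the whole lists. The control exception lay over TSBP1 in the H3K9me3 domain (32369561 to 32370300), with no coding start within 1000 bp. Its fold was 3.90 and its -log10 q 5.30. The knockdown exceptions were the peaks at HLA-DMA and between HLA-DOA and HLA-DPA1.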
